A study of Mus musculus with 23 samples.

Results

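The genomic sites of the nuclear receptor LXRβ in agonist-treated mouse macrophage-like cells were examined as the deposited peak list of 1 ChIP-seq library. The list holds 2743 sites, out of 58278 peaks in the 5 peak lists analysed, and every site of the list was kept. Each site was set beside the peaks of p65, an NF-κB subunit, in primary macrophages of 2 genotypes. A site was counted as carrying p65 where it overlapped a p65 peak by 1 bp or more. All positions are on mouse build mm9. No genome or gene annotation of that build was used here, so neither the bases under the sites nor the genes they lie at were determined.

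LXRβ was mapped in a stable RAW264.7 line, a mouse macrophage-like tumour line, that carries the biotin ligase BirA and LXRβ with a biotin acceptor tag (BLRP). The line was kept overnight in medium with 0.5% serum and then given 1 µM GW3965, a synthetic LXR agonist, for 2 h. Tagged LXRβ was pulled down on streptavidin beads, and peaks were called against input DNA of a Blrp-Ctrl RAW264.7 line given the same agonist. The labels list the strain of both lines as C57BL/6. The list therefore describes tagged LXRβ in 1 engineered line, with no untreated library to set beside it.

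The p65 lists came from thioglycollate-elicited peritoneal macrophages of male C57BL/6 mice aged 6 to 8 weeks. Both genotypes carried floxed alleles of the corepressor NCoR. Macrophages called wild type were NCoR fl/fl Lys M-Cre -/-, and macrophages called knockout were NCoR fl/fl Lys M-Cre +/-, in which Cre is driven in myeloid cells. They too were kept overnight in medium with 0.5% serum. In the main lists the cells had then received Kdo2-Lipid A (KLA), a TLR4 agonist, at 100 ng/ml for 1 h, and 2 further lists came from untreated cells. The macrophages in these lists were given no LXR agonist and the RAW264.7 cells no KLA, so cell source, treatment and protein differ together between the LXRβ and the p65 lists. As every group is a single library, differences are given without a test and without a check in replicates. Intervals are 95% intervals for counting error only. Peak lists hold no transcript levels, so neither the loss of NCoR nor cell type markers could be checked in them.

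LXRα and LXRβ are oxysterol receptors that bind DNA as heterodimers with RXR, at direct repeats of the nuclear receptor half-site. Without agonist they can hold corepressors such as NCoR at their target genes, and agonist exchanges these for coactivators. In macrophages their known targets include the cholesterol efflux transporters Abca1 and Abcg1, the lipogenic regulator Srebf1 and the LDL receptor ligase Mylip. Agonist-bound LXRs are also known to restrain inflammatory genes driven by p65, which enters the nucleus after TLR4 signalling.

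Most LXRβ sites were close to the lowest signal the peak caller accepted. Height is given as tags per 10000000 tags of the library. The median height was 10.9, with quartiles of 9.1 and 13.7, and heights ran from 8.2 to 146.5. At the caller's threshold of 9 tags, with a height of 8.2, stood 336 sites (12.2%, interval 11 to 13.5). Sites with fewer tags were not listed. A small group was far taller: 160 sites (5.83%) had 30 tags or more, 64 had 50 or more and 9 had 100 or more. The tallest 10% of the sites held 27.4% of the summed height. Only 0.67% of the library's 11758634 tags lay in peaks, against 17.57% and 17.66% in the wild type and knockout KLA p65 libraries, which had 2120392 and 1673506 tags. LXRβ and p65 heights are for this reason not compared with each other.

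The 10 tallest LXRβ sites fell into every class of p65 occupancy. Of these, 3 carried p65 in both genotypes after KLA. The tallest of all, chrX:103382247-103382367, had an LXRβ height of 146.5 (interval 125 to 171). It overlapped p65 in all 4 lists, at heights of 42.4 in wild type and 89.6 in knockout macrophages after KLA. In untreated cells the listed p65 heights there were 77.2 in wild type and 127.2 in knockout. At chr4:53128847-53128967 LXRβ reached 98.3, and the p65 centres lay 2 bp (wild type, height 70.7) and 26 bp (knockout, height 77.7) from its centre. The site at chr9:25316575-25316695 had an LXRβ height of 91.9 and p65 heights of 108.5 and 113.5, with centres 44 bp and 42 bp away. At both positions the p65 heights of the genotypes were close to each other.

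Another 4 of the 10 tallest sites overlapped no KLA p65 peak. The 2 on chromosome 13 were chr13:97363709-97363829, with an LXRβ height of 113.8, and chr13:45487022-45487142, with 109.2. The first was 45684 bp from the nearest wild type p65 peak, while the second had p65 peaks 856 bp (wild type) and 710 bp (knockout) away. On chromosome 11, chr11:120685997-120686117 reached 98.3 and chr11:120482028-120482148 reached 97.4. The latter belongs to a group of 6 sites described with the clusters. Tall LXRβ sites were thus found both on top of p65 and far from it.

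The other 3 of the 10 carried p65 in only 1 genotype. At chr10:100297544-100297664, with an LXRβ height of 97.4, a knockout p65 peak of 35.9 lay 25 bp away and the nearest wild type peak 437134 bp away. At chr19:44358696-44358816, with an LXRβ height of 89.2, the knockout peak of 65.7 lay 107 bp away. A wild type peak of 28.3 stood 152 bp away there, just outside overlap. At chr11:108873178-108873298, with an LXRβ height of 107.4, wild type p65 was 127.3, and the scaled input was 26.0 tags where most LXRβ sites had 1.4. The knockout KLA list was called against input and the wild type KLA list was not, so at this last site genotype and calling cannot be told apart. Both untreated lists were called against input and did list p65 at that site, at 347.4 in wild type and 1017.7 in knockout.

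Of the 2743 LXRβ sites, 1162 overlapped p65 in KLA-treated wild type macrophages, which is 42.4% (interval 40.5 to 44.2). In KLA-treated knockout macrophages 955 did, 34.8% (33.0 to 36.6). Both genotypes had p65 at 778 sites (28.4%), wild type only at 384 (14%) and knockout only at 177 (6.45%). The remaining 1404 sites (51.2%, 49.3 to 53.1) overlapped p65 in neither, so 1339 sites (48.8%) overlapped it in at least 1 genotype. From the side of p65 the overlap was a small part: 3.87% of the 30021 wild type peaks and 4.23% of the 22585 knockout peaks held an LXRβ site.

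The lower share in the knockout depended on how the p65 lists were matched. Listed p65 heights after KLA started at 18.9 in wild type and at 29.9 in knockout macrophages. With both lists held to the same lowest height, 35.5% of LXRβ sites overlapped wild type p65 and 34.8% knockout p65. The excess of wild type only over knockout only sites fell from 207 to 20 under that limit, with an interval of -23.1 to 63.1. With the longer list trimmed to the length of the shorter, the wild type share was 37.2% and the excess 66 (21.8 to 110). With p65 peaks of 10 tags or more in both lists, by the deposited score, the shares were 28.2% and 21.7% and the excess 178 (139 to 217). That limit kept 14023 wild type and 9900 knockout peaks. A tag adds a height of 4.71 in wild type and 5.98 in knockout, so equal tags are not equal heights. At equal lowest height no difference between the genotypes in the share of LXRβ sites with p65 was detectable, while under the other 2 limits the wild type share stayed higher. The knockout list was called against input and the wild type list was not, and the part of this in the shares was not tested.

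The presence of p65 followed LXRβ height in no single direction. The quartiles of LXRβ height were 9.1, 10.9 and 13.7 in all 4 classes (p65 in both, wild type only, knockout only, neither). By tags, the share of sites with p65 in either genotype was 39.3% (34.0 to 44.7) at 9 tags, 45.2% at 10 tags and 50.4% at 11 tags. It was highest at 12 to 13 tags, 56.1% (52.0 to 60.2), and 53.6% at 14 to 17 tags. Above that it was 47.6% at 18 to 29 tags, 34.4% (25 to 44.8) at 30 to 49 and 45.3% (32.8 to 58.3) at 50 or more. Over the 160 sites with 30 tags or more the share was 38.8% (31.2 to 46.8), against 49.4% (47.5 to 51.4) for the others. Put the other way, 6.98% of the sites without p65 had 30 tags or more, and 4.63% of those with p65 in either genotype. Within the latter the share was 3.47% with p65 in both, 6.25% with wild type only and 6.21% with knockout only.

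**Figure D1:**
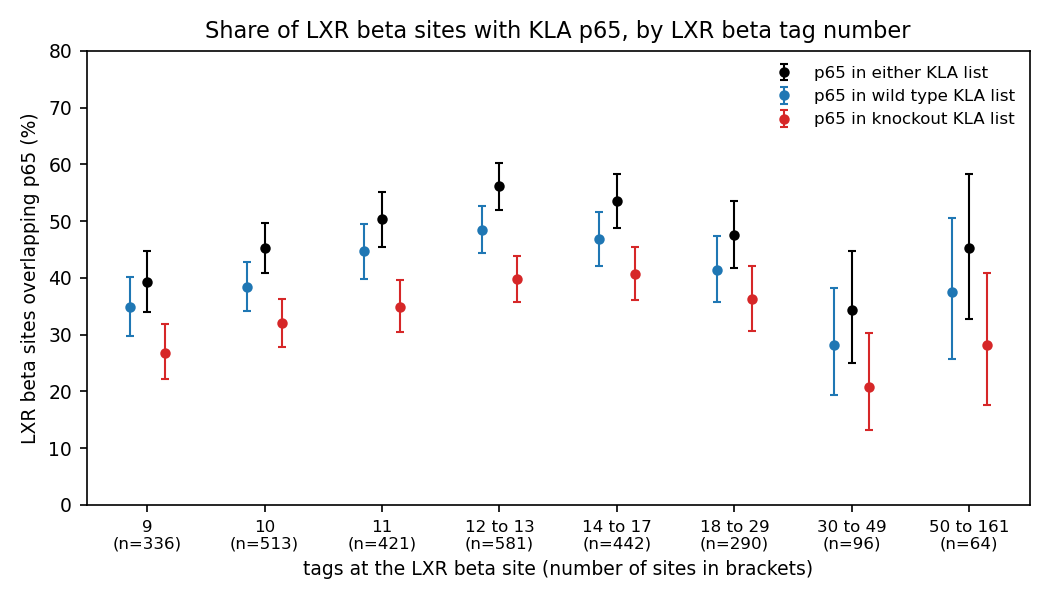
Share of LXRβ sites (vertical axis, percent) that overlap a KLA p65 peak, by the number of LXRβ tags at the site (horizontal axis), for p65 in either, wild type and knockout lists; bars are 95% exact binomial intervals. The share for either list is 39.3% at 9 tags, 56.1% at 12 to 13 tags and 34.4% at 30 to 49 tags.

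Where both proteins were listed, their heights did not move together. Across the 1162 sites with wild type p65, Pearson's r of the log2 heights was 0.00 and Spearman's rho 0.02. Across the 955 sites with knockout p65 they were -0.02 and -0.01. These are descriptions across sites, which share their libraries and a lower limit on each height. The 5 LXRβ sites with the highest wild type p65 were all among the low ones. They were chr13:20878860-20878980 (p65 height 636.7), chr17:29532440-29532560 (622.5), chr17:29531139-29531259 (575.4), chr4:102296813-102296933 (532.9) and chr1:133007499-133007619 (495.2). Their LXRβ heights lay between 8.2 and 10.0, or 9 to 11 tags. Such heights were common, since only 53.7% of all LXRβ sites had 12 tags or more. Over the 85 LXRβ sites with a wild type p65 height of 200 or more the median LXRβ height was 10.0 and the maximum 33.7. In the knockout list, 77 sites reached that p65 height, with a median LXRβ height of 10.9 and the same maximum.

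**Figure D2:**
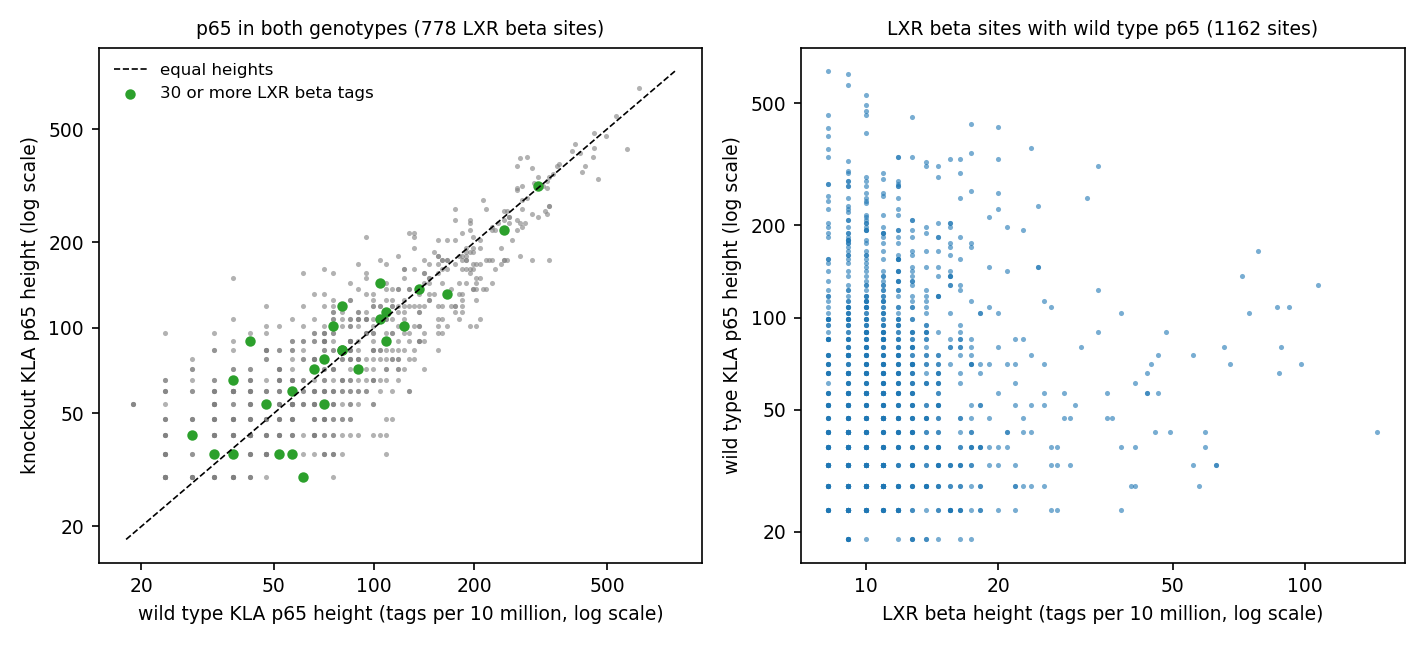
Left, p65 height in knockout against wild type macrophages at the 778 LXRβ sites with p65 in both (dashed line, equal heights; green, sites with 30 or more LXRβ tags). Right, wild type p65 height against LXRβ height at 1162 sites; all axes are log scaled, in tags per 10000000. Points follow the line of equal p65 height, and the highest p65 values stand at low LXRβ heights, where most LXRβ sites lie.

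While LXRβ height followed the presence of p65 in no single direction, p65 was taller where an LXRβ site was present. Wild type p65 peaks at LXRβ sites had a median height of 56.6 (interval 56.6 to 61.3), and those elsewhere 37.7 (37.7 to 42.4). Knockout p65 peaks had medians of 71.7 (65.7 to 71.7) at LXRβ sites and 53.8 (47.8 to 53.8) elsewhere. In the lowest 10% of wild type p65 peaks by height, 1.76% (1.32 to 2.30) held an LXRβ site, and in the tallest 10%, 7.53% (6.61 to 8.53). The corresponding knockout shares were 1.37% (0.934 to 1.94) and 8.37% (7.26 to 9.59). Of the 100 tallest p65 peaks, 14 in wild type and 18 in knockout held an LXRβ site. Tall p65 peaks thus held an LXRβ site more often than low ones in both genotypes.

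The centres of overlapping LXRβ and p65 peaks were close, but mostly more than 20 bp apart. At sites with p65 in both genotypes, 23.5% of wild type and 28.0% of knockout p65 centres were within 20 bp. At the 778 sites with p65 in both genotypes, the LXRβ centre was a median of 43.0 bp (39.0 to 46.0) from the wild type p65 centre and 42.0 bp (37.0 to 46.0) from the knockout one. The p65 centres of the 2 genotypes were 29 bp (27 to 31) apart at the same sites. The LXRβ to p65 distance was thus larger than the distance between the p65 centres of the genotypes. Overlap itself limits these distances, since listed peaks were 121 bp wide for LXRβ and 132 bp or 144 bp for p65.

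Counting all p65 centres around each LXRβ centre needs no overlap rule. Wild type p65 peaks numbered 1.90 per kb per LXRβ site (1.78 to 2.01) within 100 bp, 0.485 at 100 to 200 bp and 0.163 at 200 to 500 bp. The density was 0.0592 at 5 to 10 kb and 0.0335 (0.0328 to 0.0342) at 50 to 100 kb. The innermost density was 56.7 times the outermost in wild type and 60.0 times in knockout, where the values were 1.56 and 0.0260. Farther out a shallow excess remained: at 5 to 10 kb the density was 1.77 times (wild type) and 1.83 times (knockout) that at 50 to 100 kb. No chance level was built, and the outermost band serves only as a level to read the others against.

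**Figure D3:**
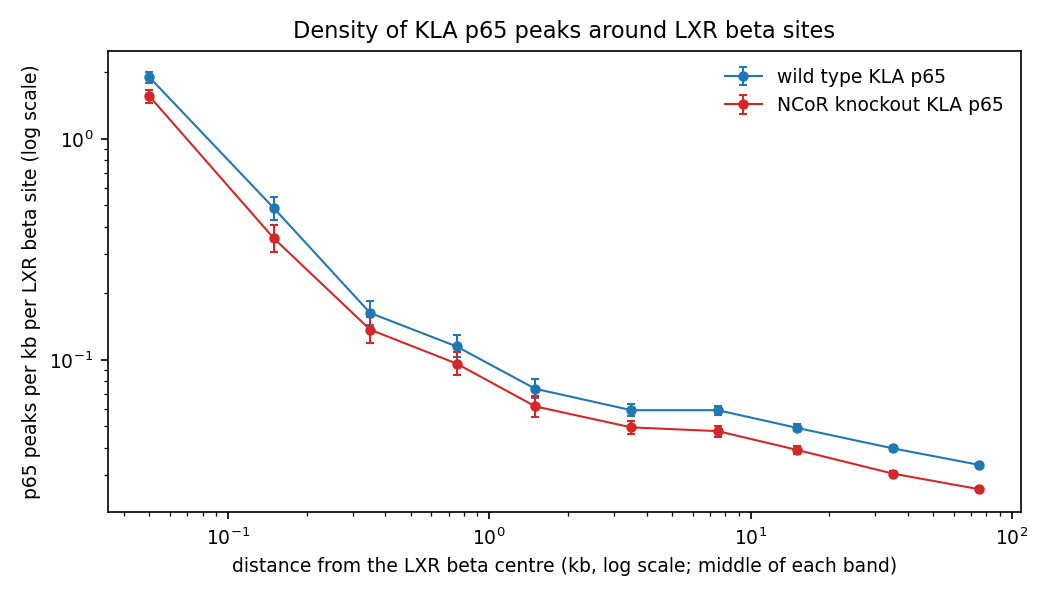
Number of KLA p65 peak centres per kb per LXRβ site (vertical axis, log scale) by distance from the LXRβ centre (horizontal axis, kb, log scale, middle of each band), for wild type and knockout macrophages; bars are 95% Poisson intervals. Density in wild type drops from 1.90 within 100 bp to 0.0335 at 50 to 100 kb, with the knockout below it at each distance.

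A wild type p65 peak lay within 1 kb of 58.0% of the LXRβ sites and within 10 kb of 77.5%. For knockout p65 the shares were 48.0% and 68.2%. More than 100 kb from any p65 peak were 5.18% of the sites in wild type and 6.78% in knockout. The 1404 sites with no overlap were spread over all distances. Of them, 382 had a KLA p65 peak of either genotype within 1 kb, 480 at 1 to 10 kb, 340 at 10 to 50 kb and 202 farther away. The share with 30 LXRβ tags or more was 8.64%, 6.88%, 6.47% and 4.95% in these 4 groups. A tall LXRβ site without p65 on it was therefore not a sign of a region empty of p65.

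The height of p65 at LXRβ sites was nearly the same in both genotypes. At the 778 sites the knockout to wild type ratio of p65 height had a median of 1.01 (0.986 to 1.04), with quartiles of 0.799 and 1.27. A ratio of 2 or more was found at 36 sites (4.63%), where 6.28% of all 16203 shared p65 sites had one. A ratio of 0.5 or less was found at 17 (2.19%), beside 2.43% of all shared sites. The median over all shared sites was 1.09 (1.07 to 1.09). The ratio fell with p65 height, and LXRβ sites had taller p65: at a mean p65 height of 160 or more the median was 0.962 (0.919 to 0.996) with LXRβ and 0.975 (0.958 to 0.993) without. At 80 to 160 the medians were 0.986 and 1.00, and at 40 to 80 they were 1.02 and 1.09. Below 40, where the listing limits of the 2 libraries weigh most, they were 1.11 (1.09 to 1.27) and 1.27. The median ratio at LXRβ sites was 0.929 per bp of peak width and 0.975 from the deposited scores, so its side of 1 depended on how height was counted.

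The ratio was also alike across LXRβ heights. With LXRβ sites in 5 equal groups by height, the median ratios from the lowest to the tallest group were 0.999, 1.05, 0.981, 1.03 and 1.01, each from 137 to 180 sites. Among the 5 tallest LXRβ sites with p65 in both genotypes the ratios were 2.11 at the chromosome X site, 1.10 at chr4:53128847-53128967 and 1.05 at chr9:25316575-25316695. They were 1.04 at chr17:31204103-31204223 and 0.826 at chr17:45889700-45889820. The chromosome X site alone stood away from 1, and its p65 heights of 42.4 and 89.6 rest on few tags.

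Sites with p65 in 1 genotype only had lower p65 than the shared ones. The median p65 height was 37.7 at the 384 wild type only sites, where wild type p65 at shared sites had a median of 75.5. At the 177 knockout only sites it was 47.8, beside 77.7 for knockout p65 at shared sites. Of the p65 peaks at these sites, 27.6% (wild type only) and 26.6% (knockout only) had 6 tags or fewer by the deposited score, next to its threshold of 5. A peak of the other genotype lay within 500 bp of 21.1% of the wild type only and 50.3% of the knockout only sites. The 3 tallest LXRβ sites with wild type p65 only had scaled inputs of 26, 110 and 13 tags. The 3 tallest with knockout p65 only, the chromosome 10 and 19 sites above and chr11:60024047-60024167, were each at the lowest input value of 1.4. The classes as a whole did not differ in this way. Input was above its lowest value at 15.1% of wild type only and 15.8% of knockout only sites, beside 16.7% of all LXRβ sites.

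Without KLA, p65 lists were short, and few LXRβ sites were in them. Untreated wild type p65 overlapped 98 LXRβ sites (3.57%) and untreated knockout p65 200 (7.29%). As a share of the p65 lists this was 14% (11.5 to 16.7) of 702 wild type peaks and 8.98% (7.83 to 10.2) of 2227 knockout peaks. Both are above the 3.87% and 4.23% found after KLA, but the lists differ in their lowest height. Listed untreated p65 started at 64.3 in wild type and 63.6 in knockout macrophages, against 18.9 and 29.9 after KLA. Tall p65 peaks after KLA held an LXRβ site more often than low ones. The tallest 10% of KLA p65 peaks started at 113.2 in wild type and 131.5 in knockout. Of these, 7.53% (6.61 to 8.53) and 8.37% (7.26 to 9.59) held an LXRβ site. The untreated share lay above this in wild type, while in knockout the intervals overlapped. Shares at equal limits were not computed. Of the 248 LXRβ sites with p65 in either untreated list, 205 (82.7%, 77.4 to 87.2) also carried it after KLA. In both untreated lists were 50 sites, and 40 were in all 4 lists. The untreated libraries had 777228 and 786121 tags, fewer than either p65 library after KLA, so sites missing from them may hold tags under the threshold.

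LXRβ sites were partly grouped along the chromosomes. The median distance from a site to the nearest other LXRβ site was 66.7 kb, with quartiles of 11.6 and 295 kb. Linking sites at most 10 kb apart put 638 sites (23.3%) into 280 clusters, and left 2105 alone. The clusters were small: 224 of 2 sites, 44 of 3, 9 of 4, 1 of 6 and 2 of 8. Tall sites were grouped more often, with 39.4% (31.8 to 47.4) of those with 30 tags or more in a cluster and 22.3% (20.7 to 23.9) of the others. In clusters of 4 or more the median LXRβ height was 19.1 (14.6 to 22.8), against 10.9 (10.0 to 10.9) for isolated sites.

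Clustered sites carried p65 somewhat more often than isolated ones, at 54.4% against 47.1%, but the largest clusters carried none. The share was 57.6% in clusters of 2, 53.8% in clusters of 3 and 50% in clusters of 4. In the 3 clusters of 6 or 8 sites, 0 of 22 sites overlapped p65. The exact upper limit of 15.4% treats these neighbouring sites as independent, so it does not bound the share in large clusters. Among sites with at least 18 tags, 2 times the caller's threshold, and clusters drawn from these alone, the order was reversed. Of 72 such clustered sites 25% (15.5 to 36.6) carried p65, and of 378 isolated ones 48.1% (43.0 to 53.3). Without the 3 largest clusters the clustered share was 32.7% (20.7 to 46.7) of 55 sites, still below the isolated share, with intervals that overlap in part. Among sites with 30 tags or more, again with clusters drawn from these alone, 36.4% (20.4 to 54.9) of 33 clustered and 39.4% (30.8 to 48.4) of 127 isolated sites carried p65. Without the 3 largest clusters these shares were 42.9% (24.5 to 62.8) of 28 and 40% (31.3 to 49.1) of 125. With so few clustered sites, these shares cannot show whether the difference at 18 tags holds among the tallest sites.

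The 3 largest clusters were dense in LXRβ and free of p65. The one at chr13:43466097-43490198 held 8 sites in 24.1 kb, with LXRβ heights from 10.9 to 43.7. No p65 peak of any list lay inside it, and the nearest ones were wild type KLA peaks of 18.9 and 23.6 that lie 4955 bp and 3949 bp from its outer sites. The one at chr7:29552617-29573116 held 8 sites in 20.5 kb, with heights from 10.9 to 28.2. It also enclosed no p65 peak, but 1159 bp from its first site stood a wild type p65 peak of 169.8, with a knockout peak of 107.6 at 1096 bp. The one at chr11:120480206-120491607 held 6 sites in 11.4 kb, with heights of 69.2, 51.0, 97.4, 40.1, 47.3 and 10.0 in order along the chromosome. Its last and lowest site was 395 bp from a wild type p65 peak of 84.9 and 368 bp from a knockout peak of 113.5. All 22 sites were at the lowest scaled input value.

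Many sites of these clusters had a blunt signal, though not only in clusters without p65. The authors' focus ratio gives the fraction of tags on the side of the peak centre that their strand predicts, and is high for a sharp peak. Its median over all LXRβ sites was 0.769, and 0.686, 0.680 and 0.589 in the chromosome 13, 7 and 11 clusters. In each of the 3, 5 sites were under 0.7, where 23.3% of all LXRβ sites were. The cluster at chr4:140975467-140987210, where 3 of 4 sites carried p65, had a median focus ratio of 0.667, as low as theirs. The median fold of tag density over the surrounding 10 kb was 17.3, 10.8 and 6.21 in the chromosome 13, 7 and 11 clusters, 6.08 in that chromosome 4 cluster and 11.4 over the list. Local signal thus stood in no single relation to these clusters, and the part of the focus ratio in the absence of p65 was not tested.

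Other groups of tall LXRβ sites mixed sites with and without p65, as did the whole list, where 48.8% of sites carried it in either genotype. The cluster at chr17:31195780-31212712 held 4 sites with LXRβ heights of 70.1, 88.3, 61.0 and 49.2. At the second of them p65 centres lay 8 bp (wild type, 80.2) and 2 bp (knockout, 83.7) away. The other sites had none on them, although 4 wild type and 3 knockout p65 peaks lay within the cluster. A further 2 tall sites stood upstream in the coordinates, chr17:31175453-31175573 (LXRβ height 78.3) and chr17:31176667-31176787 (71.9). They carried p65 of 165.1 and 136.8 in wild type and of 131.5 and 137.4 in knockout. The focus ratio of the 7 sites of this region was 0.769 to 0.833.

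Stretches of sites linked at 50 kb, a view chosen after their values were seen, also mixed sites with and without p65. At chr4:53094900-53172871 lay 6 LXRβ sites in 78.0 kb. Of these, 3, with LXRβ heights of 98.3, 15.5 and 9.1, carried p65 in both genotypes. The p65 heights there were 70.7, 174.5 and 122.6 in wild type and 77.7, 113.5 and 149.4 in knockout. The tall pair at its end, with LXRβ heights of 87.4 and 51.9, carried none. The strongest p65 peak nearby, 334.8 in wild type and 394.4 in knockout, stood 222 bp and 262 bp from the second of the pair. At chr19:44322731-44468701 lay 9 LXRβ sites in 146 kb, with 4 above a height of 40 (79.2, 89.2, 42.8 and 86.5). Of these 9, 2 overlapped p65 in either genotype, while 7 wild type and 8 knockout p65 peaks lay in the same stretch.

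**Figure D4:**
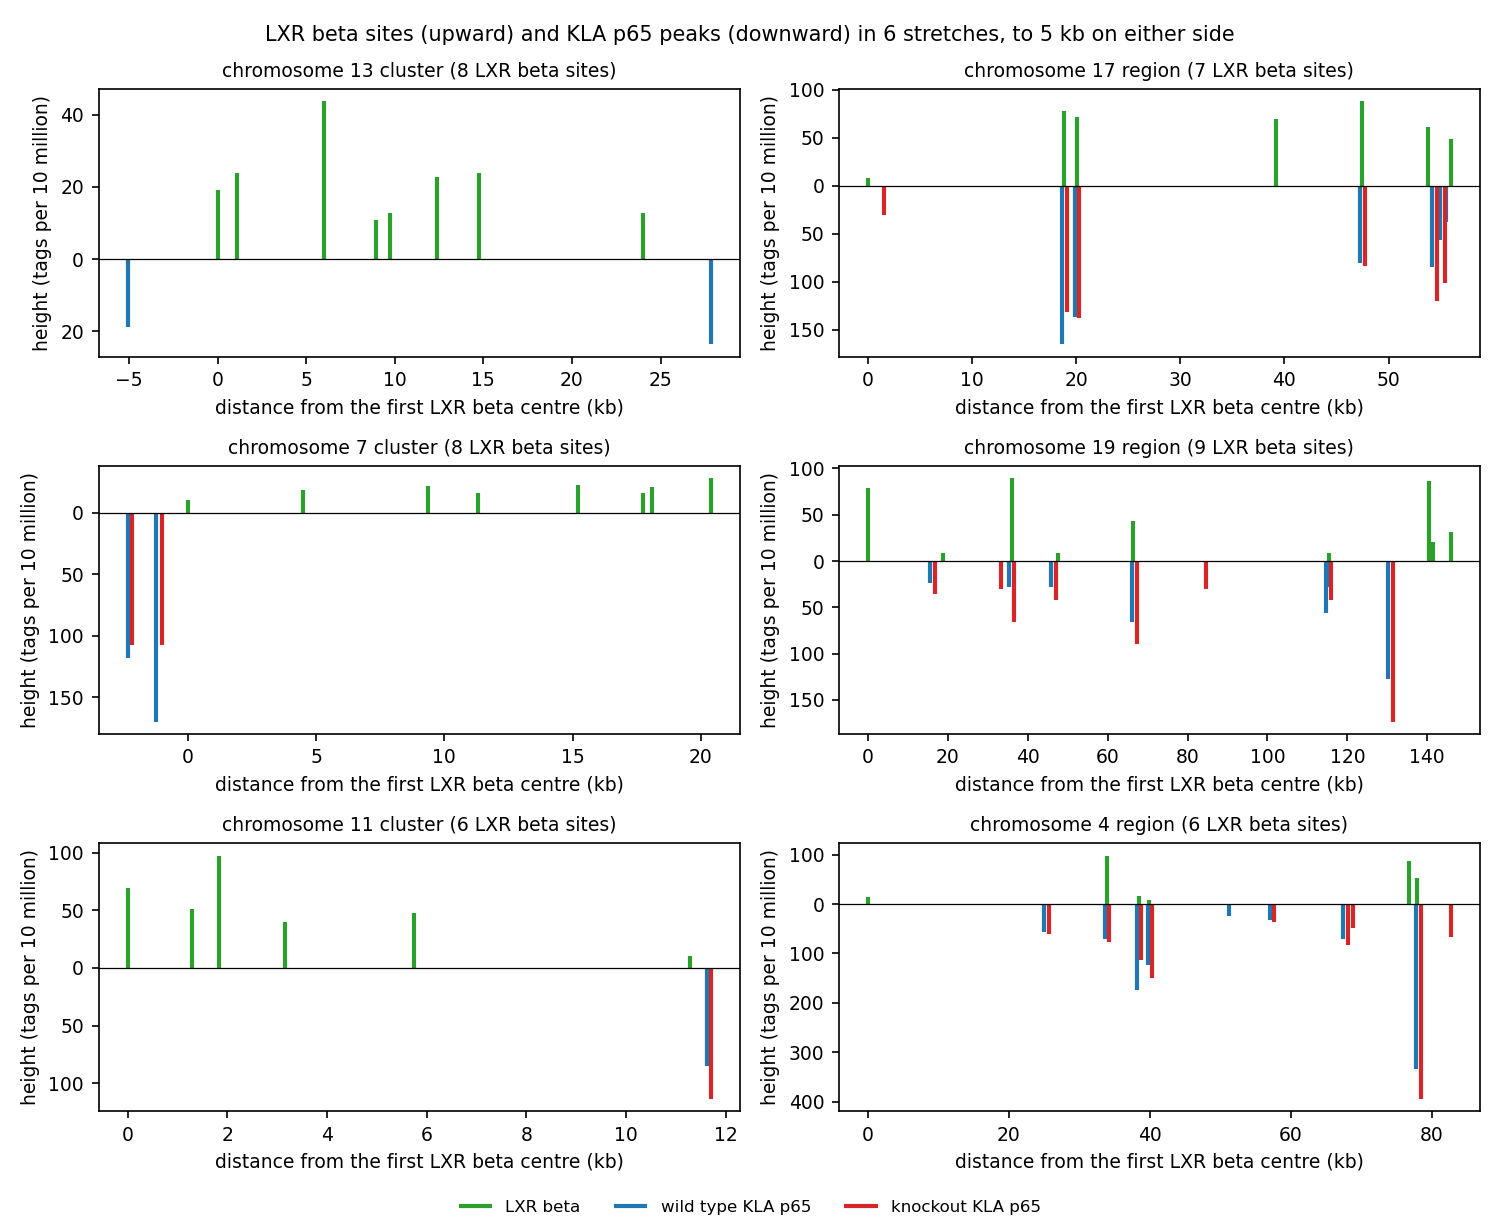
Height of LXRβ sites (upward, green) and of KLA p65 peaks (downward, wild type blue, knockout red), in tags per 10000000 of each library, by distance in kb from the first LXRβ centre of 6 stretches, with 5 kb on either side; pairs of p65 lines are drawn slightly apart. The clusters on chromosomes 13, 7 and 11 hold 8, 8 and 6 LXRβ sites with no p65 peak on them, while the regions on chromosomes 17, 19 and 4 mix sites with and without p65.

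The longest stretch was at chr4:140911317-141181464, with 25 LXRβ sites in 270 kb and heights from 9.1 to 74.6. It overlapped p65 of either genotype at 12 sites, 11 in wild type and 7 in knockout. Within it the cluster at chr4:140975467-140987210 held 4 sites, 3 of them with p65. There an LXRβ site of 31.9 lay under p65 peaks of 245.2 (wild type) and 221.1 (knockout), the tallest p65 of the stretch. Scaled input was above its lowest value at 15 of the 25 sites, where 16.7% of all LXRβ sites were, and the fold over local signal was 4.15 to 16.9. Input and local signal were thus both raised along this stretch, and their part in the number of sites called was not tested.

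In windows of 1 Mb the same part of chromosome 4 led. The window from 140000001 held 33 LXRβ sites, 15 of them with p65, and the next from 141000001 held 17, with 9. Input was above its lowest value at 36.4% and 58.8% of these sites. On chromosome 3 the window from 95000001 held 18 sites, 12 with p65. Windows with 10 or more sites numbered 18 and held 249 sites (9.08%). Without them the share of LXRβ sites with wild type p65 was 42.2% and with knockout p65 35.0%.

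By whole chromosome, the share of LXRβ sites departed from that of wild type KLA p65 peaks on several. Chromosome 3 held 7.29% of the LXRβ sites (6.35 to 8.33) and 5.14% of the p65 peaks, a ratio of 1.42. Chromosomes 4 and 6 had ratios of 1.30 each and chromosome 19 a ratio of 1.23. Part of these sites was concentrated in few places. The 1 Mb windows from 140000001 and 141000001 held 33 and 17 of the 209 sites on chromosome 4. On chromosome 6 the windows from 124000001 and 125000001 held 16 each of 203, and on chromosome 3 the fullest held 18 of 200. The intervals treat sites as independent, and ratios without these windows were not computed. Chromosome 4 had 24 of the 160 sites with 30 tags or more. On chromosome X were 27 LXRβ sites, 0.984% (0.650 to 1.43) of the list, against 1.76% of the p65 peaks, a ratio of 0.560. Chromosomes 18, 14, 13 and 12 had ratios of 0.677, 0.706, 0.776 and 0.797, each with the interval of its LXRβ share below the p65 share. The LXRβ and p65 cells also differ in source, a cell line against primary cells, and the number of chromosome copies was not measured here.

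**Figure D5:**
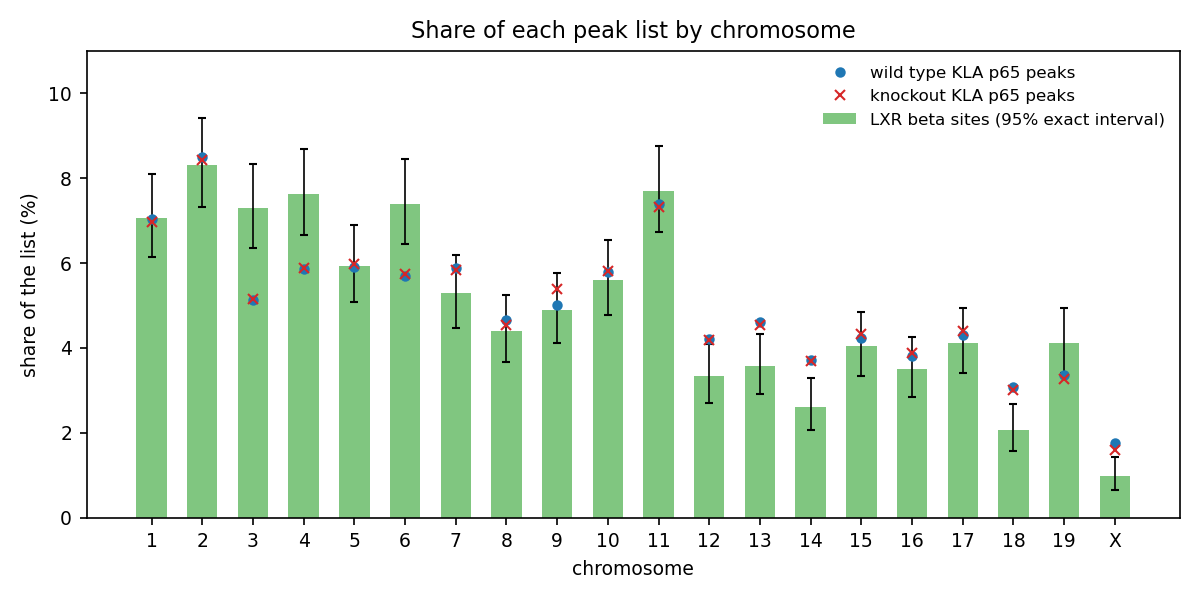
Share of each peak list on each chromosome (vertical axis, percent; chromosome Y left out), with bars for LXRβ sites and their 95% exact binomial intervals, dots for wild type and crosses for knockout KLA p65 peaks. The interval of the LXRβ share is above the wild type p65 share on chromosomes 3, 4, 6 and 19 and below it on chromosomes 12, 13, 14, 18 and X. These intervals treat sites as independent.

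Input DNA was low at most LXRβ sites. Peak calling had removed 2236 of 5179 candidate peaks (43.2%) for too little signal over the control-line input. Of the sites kept, 2286 (83.3%) had the lowest scaled input value of 1.4 tags and 457 (16.7%) more, with 32 at 4 or more and a maximum of 110.0. The share above the lowest value rose with LXRβ tags, from 5.06% at 9 tags to 32.3% at 30 to 49 tags, and was 25% at 50 or more. Listing itself required 4-fold signal over input, so sites with few tags could be listed only at low input. The part of this requirement in the rise was not tested. It was about the same with p65 in both genotypes (17.2%) as with p65 in neither (16.9%). Restricted to the sites at the lowest input, 42.4% of LXRβ sites overlapped wild type p65 and 34.7% knockout p65, next to 42.4% and 34.8% over the whole list. Of the 32 sites with 4 or more input tags, 10 overlapped p65 in the wild type KLA list, which was called without input, and 3 in the knockout KLA list, which was called with it. The untreated p65 lists were both called with input, and each overlapped 5 of these 32 sites (15.6%). Over all LXRβ sites they overlapped 3.57% (wild type) and 7.29% (knockout). The part of input calling in these counts was not tested.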

How the data were processed

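Peak lists of 1 LXRβ and 4 p65 ChIP-seq libraries were used; groups came from the sample titles, with 1 library each. The submitters' processing notes name the aligner Bowtie 0.12.7, the build mm9 and the tool HOMER, whose version is not given in the sources used here. Per the file headers, peaks were called per library in factor style at a false discovery rate of 0.001 and 4-fold over 10000 bp around, and 4-fold over input in every list but that of wild type KLA p65. The genome size setting was 2000000000 for LXRβ and wild type KLA p65 and 4000000000 for knockout KLA p65, per the file headers. The deposited height is a signal, tags per 10000000 tags. For LXRβ its steps of 0.910 per tag correspond to 10989011 tags, whereas the file header gives 11758634. The name of the LXRβ tag set ends in "All", so whether runs were pooled is not known. The deposited score is the tag number at a peak; in the wild type KLA list it differs from the tags behind the height at 13561 of 30021 peaks, and 990 peaks have 4 tags by height. The deposited focus ratio is a fraction, and the folds over input or local signal are ratios by the authors. The authors' deposited p-values entered nothing computed here.

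Overlap (1 bp or more), centre distances and clusters (linked at 10 kb) were computed with Python 3.11.15, numpy 2.4.6, pandas 2.3.3 and scipy 1.17.1, and tested on simulated lists. For a height ratio, the overlapping p65 peak whose centre was closest was taken. Shares have exact Clopper-Pearson intervals, medians order-statistic intervals and heights Poisson intervals at 95%, and the difference of 2 site counts a normal approximation; tags are not independent molecules, so these cover counting error only. The 5 equal groups by LXRβ height split ties by list order. Sites named are the 10 tallest; the 5 tallest with p65 in both or neither genotype and 3 tallest with 1 only; the 5 with highest wild type p65 or input; the 5 largest clusters; and the 3 fullest 1 Mb windows. The members and lists were chosen with earlier results of these data known. Alternatives changed the overlap rule, the limits on either list, the height and the linking distance.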

Additional observations from a re-analysis of the deposited data

How the results depend on the processing

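Of 101 values recomputed under alternatives, 49 moved by less than their counting interval or 1.5 times and 52 by more, and no alternative left more sites with knockout p65 only than with wild type p65 only. In each list of 4 shares that follows, the order is wild type p65, knockout p65, both and neither. With centres at most 100 bp apart they were 37.9%, 31.1%, 24.2% and 55.1%, and at most 500 bp apart 53.8%, 43.7%, 39.3% and 41.8%. A reciprocal overlap of 50% gave 27.1%, 22.4%, 14.2% and 64.7%, LXRβ sites with 2 times the tag threshold 38.0%, 31.8%, 25.3% and 55.6%, and p65 peaks with 10 tags or more 28.2%, 21.7%, 17.7% and 67.8%. With equal lowest p65 heights wild type, both and neither were 35.5%, 26.4% and 56.0%. Trimming the longer p65 list gave 37.2% for wild type and 54.7% for neither. The excess of wild type only sites, 207, was 275 at 500 bp, 129 with reciprocal overlap, 28 at 2 times the threshold, 20 at equal lowest height and 66 with the trimmed list. At 2 times the threshold, 72 sites were clustered, 25% of them with p65, below the isolated sites. Linking at 5 kb gave 416 clustered sites, 50% of them with p65 beside 48.6% of the isolated ones, and at 50 kb 1234 clustered sites. The knockout to wild type ratio of 1.01 was 0.929 per bp and 0.975 from the score. With p65 within 500 bp, the lowest and the tallest of 5 equal groups by LXRβ height had 52.8% and 57.6% with p65, from 42.3% and 47.2%. Height less input gave medians of 9.63 with and 9.08 without p65, from 10.9 for each.

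Alternatives chosen after seeing the data were the sites at the lowest input, those outside the fullest windows, those with a focus ratio of 0.7 or more, and, for clusters, those with 30 tags or more and those outside the 3 largest clusters. The first 2 moved no value by more than its interval; the third gave 40.2% for wild type, 53.5% for neither and an excess of 149. At 30 tags or more, 33 sites were clustered, and 36.4% of clustered and 39.4% of isolated sites carried p65. Outside the 3 largest clusters 28 were clustered at that limit, with shares of 42.9% and 40%, and 55 at 2 times the threshold, with 32.7% of the clustered sites carrying p65. The planned limit to sites with less than 1 scaled input tag was not run, since the lowest listed value is 1.4. No paired analysis was possible because each group is 1 library without a replicate number. By the deposited score, listed sites have at least 9 tags for LXRβ and 5 for p65, so absence from a list does not show absence of binding.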

Other observations

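Sites with a blunter LXRβ signal carried p65 more often. Of the 612 LXRβ sites under 30 tags with a focus ratio under 0.7, 57.2% (53.2 to 61.1) overlapped KLA p65 in either genotype, and of the 1971 with a higher ratio 47.0% (44.8 to 49.3). Among sites with 30 tags or more the shares were 37.0% (19.4 to 57.6) of 27 and 39.1% (30.8 to 47.9) of 133. The 202 sites more than 50 kb from any KLA p65 peak had a median focus ratio of 0.842, beside 0.761 for the 382 sites without overlap but within 1 kb of one. The limit of 0.7 was chosen after the values were seen.

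The 5 LXRβ sites with the highest scaled input included 2 near the start of a chromosome in the coordinates, chr4:3017304-3017424 with 110.0 input tags and chr11:3001689-3001809 with 78.0. Their LXRβ heights were 87.4 and 61.9. The other sites, chr12:48934923-48935043, chr11:108873178-108873298 and chr13:9011333-9011453, had inputs of 54, 26 and 19. At chr11:108873178-108873298 p65 was listed untreated at 347.4 in wild type and 1017.7 in knockout macrophages, after KLA at 127.3 in wild type, and not after KLA in the knockout.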
